A study of Rattus norvegicus with 6 samples.

Results

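The 10 genes described here make, break down or sense prostaglandins. They are the cyclooxygenases Ptgs1 and Ptgs2, the prostaglandin E2 synthase Ptges, the prostaglandin D2 synthases Ptgds and Hpgds, the degrading enzyme Hpgd, and the prostaglandin E2 receptors Ptger1, Ptger2, Ptger3 and Ptger4. They were chosen by name, and each is represented by the probe set that carried its symbol alone and had the highest mean over all arrays. All 10 were found among the 14168 genes with a symbol of their own. Ptger2 alone had more than 1 probe set, and its 2 probe sets held identical values. The platform's probe set identifiers, in the order of the names above, were 10835817, 10764551, 10844223, 10843460, 10862842, 10791522, 10810280, 10779553, 10819905 and 10821689.

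The samples were inner medulla, the tip of the kidney's medulla where urine is concentrated, from male Sprague-Dawley rats in 3 groups, and each of 6 whole-transcript arrays measured total RNA of 1 sample, with 2 arrays a group. Vehicle rats received saline at 1 µl/h for 5 d from a minipump under the skin. dDAVP rats received dDAVP (desmopressin, which activates the vasopressin V2 receptor) at 40 ng/h for 5 d in the same way. Withdrawal rats received the same 5 d of dDAVP, had the pump taken out under light enflurane anaesthesia and had tissue taken 3 h later. The end of the hormone and the procedure cannot be told apart in that group. The labels do not say whether an array holds 1 animal or several, so the tests measure the spread between these arrays, and 2 arrays a group limit every value. Values are log2 of the deposited intensity. They compare 1 gene across arrays, not 1 gene with another, since probes differ in brightness. In a bulk tissue, fewer cells of a type and less RNA per cell cannot be told apart.

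Prostaglandins are made from arachidonic acid, which phospholipases A2 release from membranes. Cyclooxygenases turn it into prostaglandin H2, and terminal synthases turn that into prostaglandin E2, D2, F2α, prostacyclin or thromboxane. The inner medulla is a major site of prostaglandin E2 production, in which Ptgs1 is known as the enzyme of collecting duct cells and Ptgs2 as the inducible enzyme of interstitial cells. Prostaglandin E2 opposes vasopressin in the collecting duct, in part through the receptor encoded by Ptger3, which lowers cAMP, whereas those of Ptger2 and Ptger4 raise cAMP and that of Ptger1 raises calcium.

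Principal cell genes of the collecting duct were present as the tissue label states, with Aqp2, the vasopressin-regulated water channel, between 13.14 and 13.40 log2 in the 6 arrays. Slc34a1, a marker of the proximal tubule of the cortex, lay between 7.16 and 7.38. Of the thick ascending limb markers, Umod lay between 9.80 and 11.18 and Slc12a1 between 9.46 and 10.69. How much tissue from outside the inner medulla the samples held was not tested. Vehicle replicate 1 and dDAVP replicate 2 stood apart from the other 4 arrays in genes outside the prostaglandin pathway. Mest, an imprinted gene, was at 5.47 and 5.66 in them and at 9.97 or more elsewhere. The mitotic kinase Cdk1 was at 7.37 and 7.26 against at least 8.90, and the protease inhibitor Spink13 was at 9.11 and 8.93 against at most 6.83. These genes were picked after their values were known. The median intensity of an array ran from 156 to 182, lowest in the dDAVP arrays, and the median gene was at -0.11 log2 in dDAVP against vehicle, at 0.14 in withdrawal against dDAVP and at 0.03 in withdrawal against vehicle. After a cyclic loess normalization of all probe sets these medians were within 0.01 of 0.

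Ptgs2, Ptges and Hpgd are the members whose level separated those arrays most widely, and the 250 bases before their starts are shown so that the control regions of an inducible, a coupled and a degrading enzyme can be read side by side. The sequences are from RefSeq (build GRCr8), 5′ to 3′ on the strand of the gene, with matches to the motifs searched in capitals. The Ptgs2 window is chr13:64713813-64714062 on the + strand, that of Ptges chr3:34586988-34587237 on the - strand and that of Hpgd chr16:39034832-39035081 on the - strand.
Ptgs2: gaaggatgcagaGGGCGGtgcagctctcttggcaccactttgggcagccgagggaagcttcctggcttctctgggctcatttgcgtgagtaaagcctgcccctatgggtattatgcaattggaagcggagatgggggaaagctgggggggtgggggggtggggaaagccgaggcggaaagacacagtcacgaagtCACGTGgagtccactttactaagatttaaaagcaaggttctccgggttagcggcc
Ptges: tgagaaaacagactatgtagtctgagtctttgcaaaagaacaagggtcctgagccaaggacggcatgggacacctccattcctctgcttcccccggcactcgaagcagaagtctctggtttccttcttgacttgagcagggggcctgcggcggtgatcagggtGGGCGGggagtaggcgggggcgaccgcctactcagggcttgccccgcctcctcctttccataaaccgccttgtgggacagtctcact
Hpgd: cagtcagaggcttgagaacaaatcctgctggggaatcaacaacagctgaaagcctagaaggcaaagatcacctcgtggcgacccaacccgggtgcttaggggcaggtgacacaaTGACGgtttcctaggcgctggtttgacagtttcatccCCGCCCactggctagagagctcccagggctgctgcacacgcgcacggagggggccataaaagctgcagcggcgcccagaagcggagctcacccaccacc

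Each of the 3 windows held 1 GC box (GGGCGG, either strand), a motif found in 32.4% of 27457 rat promoter windows of the same length and in 6 of the 9 members whose promoter the table holds. Ptgs2 alone among those 9 held an E-box (CACGTG), 55 bases before the start, and 5.79% of all windows held one. Hpgd alone held the short core of the cAMP response element (CGTCA, on the opposite strand), 136 bases before its start, against 19.0% of all windows. The full cAMP response element (TGACGTCA, which contains the core), the TATA box (TATAAA), the AP-1 site (TGANTCA), and the NF-kappaB and tonicity elements were searched on both strands and had no match in any of the 9 windows. They were found in 1.70%, 13.1%, 6.36%, 6.41% and 5.10% of all windows. These are letter matches only.

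Ptgs2 varied more between arrays than nearly any other gene, and it did so inside the groups. Its log2 intensity, replicate 1 first as throughout, was 9.47 and 11.06 in vehicle, 11.92 and 10.04 in dDAVP, and 10.96 and 11.74 after withdrawal. The lowest array, vehicle replicate 1, and the highest, dDAVP replicate 1, were 5.47-fold apart. Its SD over the 6 arrays, 0.95 log2, was larger than that of 99.8% of all genes. The replicates differed 3.02-fold in vehicle, 3.69-fold in dDAVP and 1.71-fold after withdrawal, and all 3 groups overlapped.

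The order of the Ptgs2 group means was vehicle (10.26 ± 1.13), dDAVP (10.98 ± 1.33) and withdrawal (11.35 ± 0.55; SD, n = 2), and no neighbours in that order differed beyond their spread. Withdrawal was 1.08 ± 0.74 log2 (SE) above vehicle, with a 95% interval from -0.71 to 2.88 (limma, adjusted p = 0.995). dDAVP was 0.71 ± 0.74 above vehicle (interval -1.08 to 2.51, limma adjusted p = 0.675), and withdrawal was 0.37 ± 0.74 above dDAVP (interval -1.42 to 2.16, limma adjusted p = 0.773). These intervals hold both no difference and differences of over 2 log2. Without the 2 arrays that stand apart, Ptgs2 was 0.29 higher in withdrawal than in vehicle, 0.86 higher in dDAVP than in vehicle, and 0.57 lower in withdrawal than in dDAVP, with 1 vehicle and 1 dDAVP array left. Without dDAVP replicate 2 alone, dDAVP was 1.66 above vehicle (limma, adjusted p = 0.440), and without dDAVP replicate 1 it was -0.23.

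Ptgs1, the constitutive cyclooxygenase, was steady beside Ptgs2. It was at 11.63 and 11.79 in vehicle, 11.99 and 11.69 in dDAVP and 11.77 and 11.57 after withdrawal, a span of 1.34-fold. The groups overlapped, and the order of their means was withdrawal (11.67 ± 0.14), vehicle (11.71 ± 0.11) and dDAVP (11.84 ± 0.21), with neighbours closer than their spread. dDAVP was 0.13 ± 0.14 above vehicle (interval -0.21 to 0.47, limma adjusted p = 0.699) and withdrawal was -0.17 ± 0.14 against dDAVP (interval -0.51 to 0.17, limma adjusted p = 0.471). Withdrawal and vehicle differed by -0.05 ± 0.14. Without the 2 arrays that stand apart the first of these differences was 0.20 and the second -0.32.

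**Figure D1:**
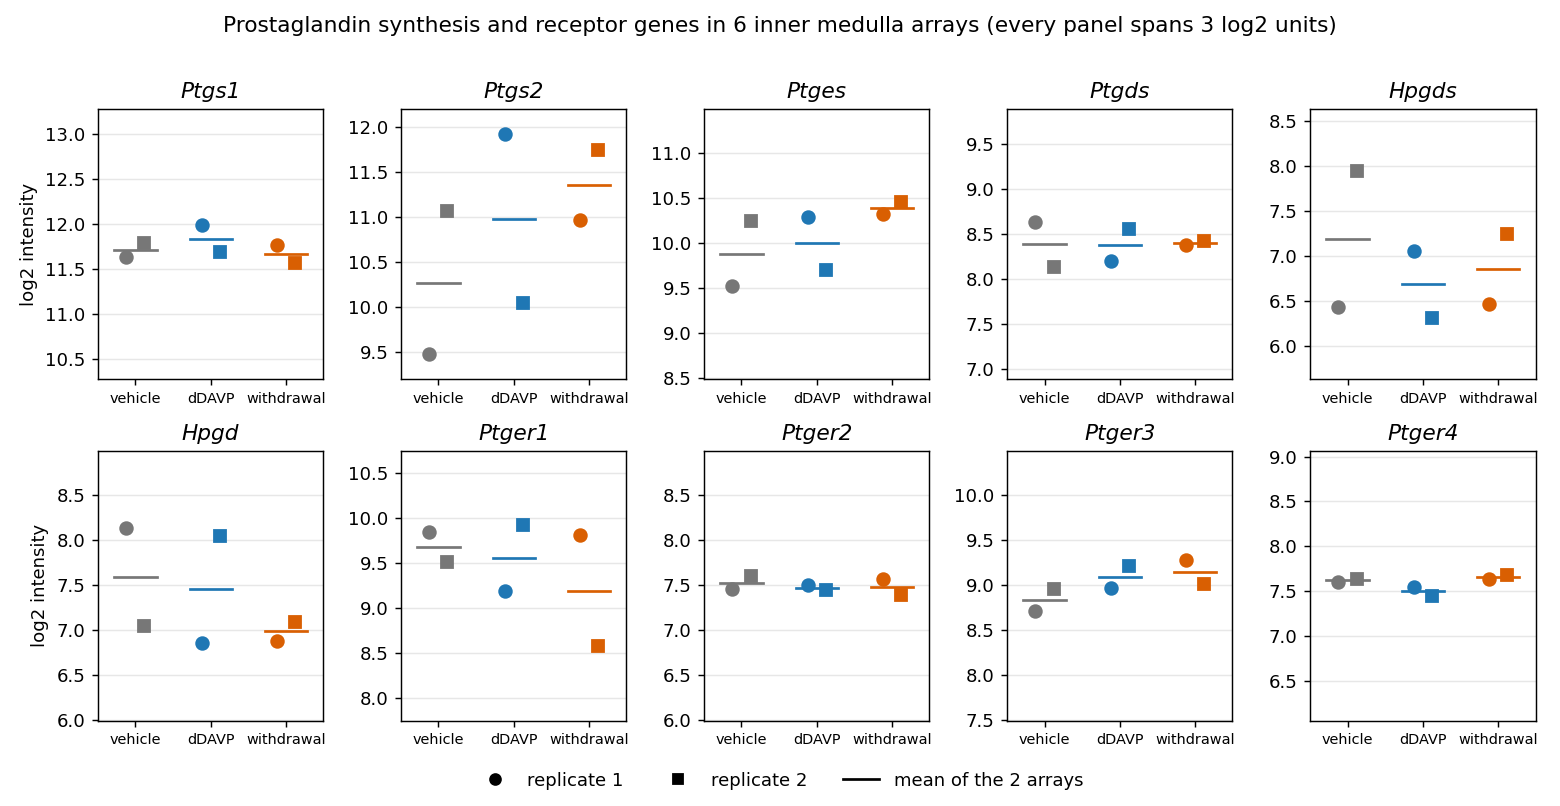
Log2 intensity of the 10 genes in each of the 6 arrays (vertical axis, 3 log2 units in every panel), by group (horizontal axis). Circles are replicate 1, squares replicate 2 and bars the mean of both. The replicates of Ptgs2, Hpgd and Hpgds lie far apart within groups, up to 1.88 log2 for Ptgs2 in dDAVP, whereas those of Ptger2 and Ptger4 lie within 0.18.

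Ptges encodes the inducible membrane-bound synthase that works with Ptgs2. It was at 9.52 and 10.24 in vehicle, 10.28 and 9.70 in dDAVP and 10.32 and 10.45 after withdrawal. Both withdrawal arrays lay above all 4 others, by 10.32 against 10.28 at the nearest, and vehicle replicate 1 and dDAVP replicate 2 were again the lowest. The group means ran from vehicle (9.88 ± 0.51) over dDAVP (9.99 ± 0.41) to withdrawal (10.39 ± 0.10). Withdrawal was 1.42-fold above vehicle, 0.50 ± 0.28 log2 (interval -0.17 to 1.18, limma adjusted p = 0.995), and 1.31-fold above dDAVP, 0.39 ± 0.28 (interval -0.29 to 1.07, limma adjusted p = 0.415). dDAVP and vehicle differed by 0.11 ± 0.28 (limma, adjusted p = 0.864). Without the 2 arrays that stand apart withdrawal was 0.14 above vehicle and 0.10 above dDAVP.

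The enzymes of prostaglandin D2 synthesis did not share 1 pattern. Ptgds, the lipocalin-type synthase, was at 8.64 and 8.14 in vehicle, 8.20 and 8.55 in dDAVP and 8.38 and 8.43 after withdrawal. Its group means lay within 0.03 of each other, and it was highest in the 2 arrays that stand apart. The 95% interval of dDAVP against vehicle was -0.49 to 0.46 (limma, adjusted p = 0.975), and the difference was -0.02 with all arrays and 0.06 without the 2 that stand apart. Hpgds, the glutathione-dependent synthase of mast cells, macrophages and other immune cells, was at 6.44 and 7.95 in vehicle, 7.06 and 6.31 in dDAVP and 6.46 and 7.24 after withdrawal. Vehicle replicate 2 was 3.11-fold above dDAVP replicate 2, and the groups overlapped.

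The group means of Hpgds were 6.69 ± 0.53 in dDAVP, 6.85 ± 0.55 after withdrawal and 7.19 ± 1.07 in vehicle, neighbours differing by less than their spread. dDAVP was -0.51 ± 0.53 against vehicle (interval -1.80 to 0.79, limma adjusted p = 0.681). Without vehicle replicate 1 this became -1.26 (limma, adjusted p = 0.893), and without vehicle replicate 2 it was 0.25. Without both arrays that stand apart it was -0.89. The summed intensity of all 7 mast cell markers was 682 and 630 in vehicle, 566 and 624 in dDAVP and 680 and 656 after withdrawal. In dDAVP against vehicle the median of these markers was -0.11 log2, as was that of all genes, and 0.03 after cyclic loess. The 7 markers of macrophages and other leukocytes summed to 3923 and 4703, 4571 and 3641, and 4182 and 4063 in the same order, highest in vehicle replicate 2 and lowest in dDAVP replicate 2 as for Hpgds. The median log2 level of the same 7 markers had another order, 9.22 and 8.97, 9.17 and 9.29, and 8.86 and 9.01, with dDAVP replicate 2 highest. Detection above background was not tested for the markers of either list, so these sums do not show whether the cells were present. The part of these cells in the Hpgds values was not tested. Detection of Hpgds itself above background was not tested either.

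Hpgd, the dehydrogenase that takes the first step in inactivating prostaglandin E2, was highest in the 2 arrays where Ptgs2 and Ptges were lowest. Between the withdrawal arrays Hpgd, Ptgs2 and Ptges were all higher in replicate 2. Hpgd was at 8.13 and 7.05 in vehicle, 6.86 and 8.05 in dDAVP and 6.88 and 7.10 after withdrawal. Vehicle replicate 1 and dDAVP replicate 2 lay at least 0.95 log2 above every other array, which is the reverse of Ptgs2, where they lay at least 0.93 below. Replicates differed 2.12-fold in vehicle and 2.29-fold in dDAVP but 1.16-fold after withdrawal. The group means were 6.99 ± 0.15 in withdrawal, 7.46 ± 0.84 in dDAVP and 7.59 ± 0.77 in vehicle, with neighbours within their spread. Withdrawal was -0.60 ± 0.47 against vehicle (interval -1.74 to 0.54, limma adjusted p = 0.995) and -0.46 ± 0.47 against dDAVP (interval -1.60 to 0.68, limma adjusted p = 0.552). Without the 2 arrays these became -0.06 and 0.13.

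**Figure D2:**
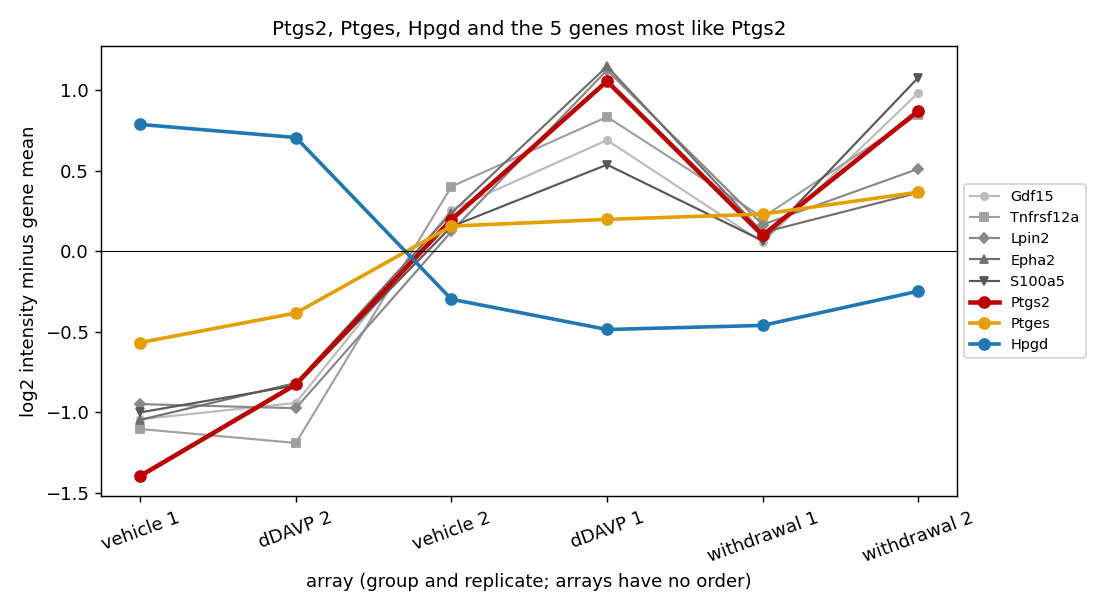
Log2 intensity minus each gene's mean over the 6 arrays (vertical axis) for Ptgs2 (red), Ptges (orange), Hpgd (blue) and the 5 genes closest to Ptgs2 (greys), by array (horizontal axis; lines only join points of 1 gene). Ptgs2 and Ptges are lowest, and Hpgd highest, in vehicle replicate 1 and dDAVP replicate 2.

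Among the prostaglandin E2 receptors, Ptger1 varied most. It was at 9.85 and 9.50 in vehicle, 9.18 and 9.92 in dDAVP and 9.81 and 8.57 after withdrawal. Withdrawal replicate 2 was the lowest array, 2.36-fold below withdrawal replicate 1, and the groups overlapped. Means were 9.19 ± 0.87 after withdrawal, 9.55 ± 0.52 in dDAVP and 9.67 ± 0.24 in vehicle, neighbours within their spread. dDAVP against vehicle was -0.12 ± 0.43, and -0.32 without the 2 arrays that stand apart. Withdrawal against vehicle was -0.49 ± 0.43 (interval -1.52 to 0.55, limma adjusted p = 0.995). It was -1.10 without withdrawal replicate 1 (limma, adjusted p = 0.999) and 0.13 without withdrawal replicate 2.

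Ptger3, the receptor that restrains cAMP in the collecting duct, was the member with the smallest p in the F-test over the 3 groups (limma, adjusted p = 0.505), in which 8.64% of all genes and no member had an unadjusted p under 0.05. It was at 8.72 and 8.96 in vehicle, 8.97 and 9.21 in dDAVP and 9.28 and 9.01 after withdrawal. Both vehicle arrays lay below all 4 arrays of dDAVP-treated rats, the nearest being 8.96 against 8.97, and dDAVP and withdrawal overlapped. Means were 8.84 ± 0.17, 9.09 ± 0.17 and 9.15 ± 0.19 in the order vehicle, dDAVP, withdrawal. dDAVP was 1.19-fold above vehicle, 0.26 ± 0.15 log2 (interval -0.11 to 0.62, limma adjusted p = 0.551), and 0.31 after cyclic loess. Withdrawal was 1.24-fold above vehicle, 0.31 ± 0.15 log2 (interval -0.05 to 0.67, limma adjusted p = 0.995). Without the 2 arrays that stand apart these differences were 0.01 and 0.19.

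The receptors that raise cAMP were the steadiest members. Ptger2 was at 7.45 and 7.59 in vehicle, 7.50 and 7.44 in dDAVP and 7.57 and 7.39 after withdrawal, within 1.15-fold in all arrays and with overlapping groups. Its interval for dDAVP against vehicle, -0.31 to 0.21, and for withdrawal against dDAVP, -0.25 to 0.27, reach no further than 0.31 log2 from 0 under this model. Ptger4 was at 7.61 and 7.64 in vehicle, 7.55 and 7.45 in dDAVP and 7.64 and 7.68 after withdrawal. Both dDAVP arrays lay below the other 4. The difference of Ptger4 was -0.12 ± 0.09 for dDAVP against vehicle (limma, adjusted p = 0.586) and 0.16 ± 0.09 for withdrawal against dDAVP (limma, adjusted p = 0.337), close to the -0.11 and 0.14 of the median gene. After cyclic loess these values were 0.02 and -0.01. Whether the signals of Ptger2 and Ptger4 stood above background is unknown, since detection calls were not used here. The same holds for Hpgds and Hpgd, whose lowest arrays were at 6.31 and 6.86.

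**Figure D3:**
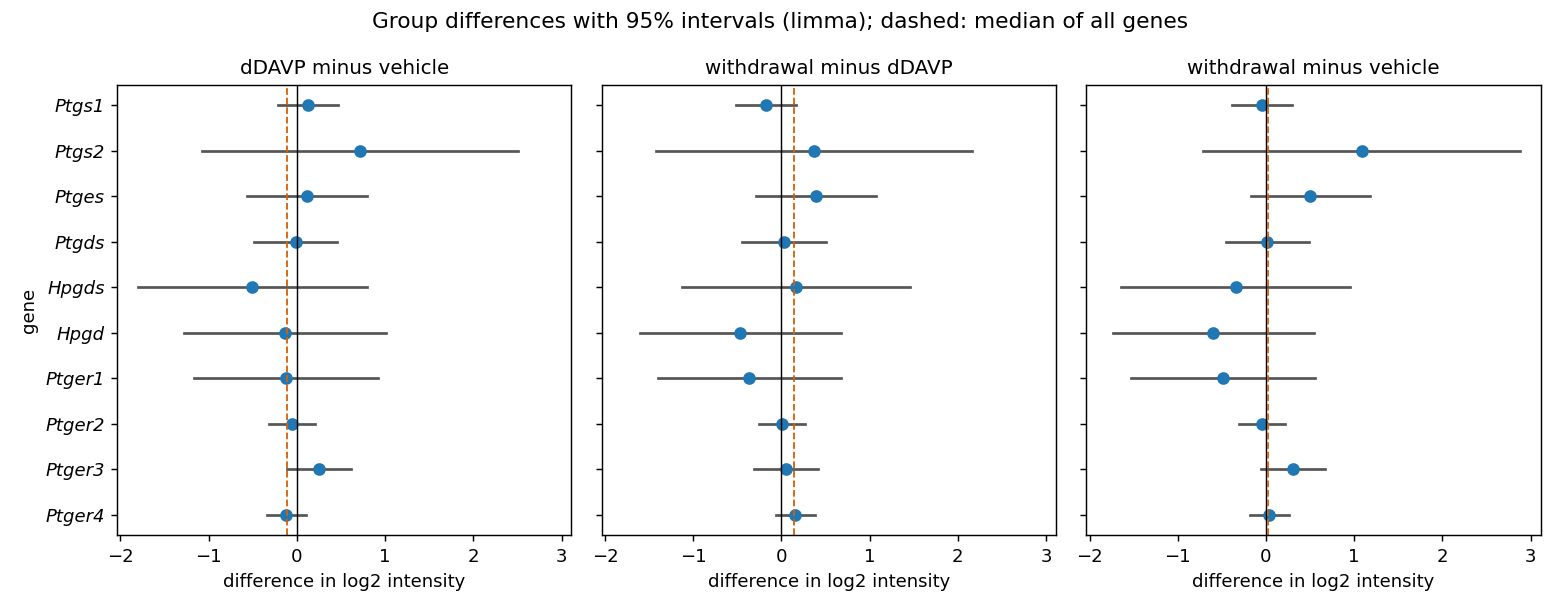
Differences in log2 intensity between group means (horizontal axis) for the 10 genes (vertical axis) in the 3 comparisons. Points are differences, lines 95% intervals from limma and dashed lines the median of all 14168 genes; every interval holds 0, and that of Ptgs2 in withdrawal minus vehicle is widest to the right, ending at 2.88.

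In dDAVP against vehicle no member passed, and none had an unadjusted p under 0.05. Over all genes 0% passed an adjusted p of 0.05 in limma and 7.43% (1052 genes) had an unadjusted p under 0.05. The arrays of the groups did not overlap in 2 of 10 members, against 45.4% of all genes. Ptger3 was the member that lay higher, as did 4.80% of all genes, and Ptger4 the one that lay lower, as did 40.6%. The median member difference was -0.03, against -0.11 for all genes, with 4 members above 0. In withdrawal against dDAVP, which holds the same dDAVP arrays, no member had an unadjusted p under 0.05, against 19.0% of all genes (2686 genes), of which 0% passed the adjusted threshold in limma. Groups did not overlap in 2 members, Ptges and Ptger4, against 57.6% of all genes, and both were higher, as were 49.6% of all genes. The median member difference was 0.04, with 7 members above 0. In withdrawal against vehicle no member had an unadjusted p under 0.05, against 1.79% of all genes (253 genes, 0% passing in limma). The groups did not overlap in 2 members, against 30.7% of all genes. These were Ptges and Ptger3, both higher, as were 17.6% of all genes. The median member difference was -0.01, with 5 members above 0. The shares of all genes depend on the normalization. After cyclic loess, 466, 942 and 304 of 14168 genes had an unadjusted p under 0.05 in limma, in the same order of comparisons. No member was among them. The shares of genes without overlap were not recomputed after loess.

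Spread between replicates was the larger part of the variation of these genes, except in Ptger3 and Ptger4. In 8 of the 10 members the widest gap between replicates exceeded the largest difference between group means, the exceptions being Ptger3 and Ptger4. The same held for 59.1% of all genes. The groups accounted for 24.8% of the sum of squares of the median member and 52.1% of that of the median gene. Their share was 26.7% in Ptgs2, 23.0% in Hpgd and 13.4% in Hpgds, but 53.8% in Ptger3 and 80.9% in Ptger4. With 3 groups of 2 arrays, a share above 0 arises without any effect of group. Ptger4 differed by -0.12 in dDAVP against vehicle and 0.16 in withdrawal against dDAVP, where the median gene was at -0.11 and 0.14. After cyclic loess the Ptger4 differences were 0.02 and -0.01. The shares were not recomputed after loess.

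In 6 of the 10 members vehicle replicate 1 and dDAVP replicate 2 both lay outside the range of the other 4 arrays. They were lowest in Ptgs2, Ptges and Hpgds (12.7% of all genes) and highest in Ptgds, Hpgd and Ptger1 (10.9% of all genes). The margins were narrow in Hpgds, at 0.02, in Ptger1, at 0.04, and in Ptgds, at 0.12, and wide in Ptges, at 0.54. Both shares come from arrays picked on other genes of this table, so the counts are a description. Of 6 endothelial markers 4 were highest in the 2 arrays. These were Tie1 (9.89 and 9.89 against at most 9.22), Egfl7 and, by margins of only 0.05 and 0.03, Pecam1 and Kdr. Plvap (11.82 and 12.05 in the 2 arrays) and Cdh5 (7.28 and 7.09) were not. The summed intensities of the 6 markers were 7420 and 7177 in vehicle, 7167 and 8079 in dDAVP and 6906 and 6150 after withdrawal. Of 7 macrophage and leukocyte markers 3 were lowest in the 2 arrays, including Cd68 (9.33 and 9.29 against at least 10.12), and Cd74 was highest. Of 6 fibroblast and interstitial cell markers Pdgfra was highest (10.03 and 9.96 against at most 9.75) and Postn lowest, with summed intensities of 6733 and 5009, 5137 and 5190, and 4703 and 5644. The 4 listed thin limb markers summed to 16005 and 20771, 20733 and 16465, and 19451 and 18933, lowest in the same 2 arrays. Slc14a2 and Cldn4 were each lowest there, Bcl6 was highest, and Akr1b1 was neither. Whether these genes mark the thin limb alone in this tissue was not tested, so the sum is not a measure of that segment. Principal cell markers summed to 25005 and 26277, 26773 and 26015, and 26775 and 23723. Intercalated cell markers summed to 1200 and 3044, 2813 and 2081, and 3319 and 1733. Thick ascending limb markers summed to 6877 and 8634, 7468 and 9664, and 8811 and 7149. Markers of the papillary surface epithelium summed to 1494 and 1332, 1172 and 1490, and 1419 and 1544. Those of the proximal tubule summed to 811 and 756, 636 and 752, and 749 and 749. Detection above background was not tested for any of these markers, and neither was the part of these cell types in the member values.

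The other genes of the pathway were 28 measured genes of a list of 29. None of them passed in any comparison in limma. In dDAVP against vehicle 3 had an unadjusted p under 0.05, all lower (6.85% of all genes were), in withdrawal against dDAVP 7 did, all higher (17.3% of all genes), and in withdrawal against vehicle 2 did, both higher (0.642% of all genes). The largest group of these were secreted phospholipases A2. Over the 6 arrays Pla2g5 lay between 6.55 and 7.08 log2 and Pla2g10 between 6.26 and 6.81. Pla2g3 lay between 7.07 and 7.47 and Pla2g2d between 7.12 and 7.62. Whether these signals stood above background was not tested. In withdrawal against dDAVP, Pla2g5 was at 0.39 ± 0.10, Pla2g10 at 0.39 ± 0.12, Pla2g3 at 0.36 ± 0.09 and Pla2g2d at 0.31. After cyclic loess these were at 0.18, 0.18, 0.16 and 0.12. The median of the 28 genes in that comparison was 0.12 as deposited and -0.02 after loess, and that of all genes was 0.14 as deposited. Also in that group were the thromboxane receptor Tbxa2r (0.36 ± 0.10, and 0.17 after loess), the prostaglandin F receptor Ptgfr (0.24, and 0.042 after loess) and the carbonyl reductase Cbr1 (0.34, and 0.32 after loess). In dDAVP against vehicle the lower genes were Pla2g10 (-0.33, and -0.17 after loess), Pla2g3 (-0.22, and -0.060 after loess) and Prxl2b, which reduces prostaglandin H2 to prostaglandin F2α (-0.41, and -0.32 after loess).

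Tbxa2r and Pla2g2a were the genes with an unadjusted p under 0.05 in withdrawal against vehicle. Pla2g2a, an inflammatory secreted phospholipase, was at 7.69 and 7.45 in vehicle, 7.89 and 7.45 in dDAVP and 8.01 and 7.99 after withdrawal. Both withdrawal arrays were the highest, 0.43 ± 0.17 above vehicle and 0.41 after loess (limma, adjusted p = 0.995). Tbxa2r was at 7.24 and 7.29, 7.26 and 7.06, and 7.55 and 7.50, with both withdrawal arrays highest, 0.27 above vehicle and 0.23 after loess. Pla2g4a, the cytosolic phospholipase A2 that feeds the cyclooxygenases, was lowest, at 10.75, in withdrawal replicate 1 and differed by 0.00 in dDAVP against vehicle.

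The nearest relatives of the members in function did not pass either. The constitutive prostaglandin E2 synthases gave 0.13 for Ptges2 and 0.19 for Ptges3 in dDAVP against vehicle, and -0.02 and -0.28 in withdrawal against dDAVP. After loess Ptges2 was at 0.18 and -0.070, and Ptges3 at 0.21 and -0.29. The prostacyclin synthase Ptgis gave -0.26 and -0.09 (-0.12 and -0.25 after loess), and the prostacyclin receptor Ptgir -0.19 and 0.21 (-0.017 and -0.0055 after loess, where the second sign turned). The prostaglandin D2 receptor Ptgdr2 gave -0.30 and 0.19 (-0.14 and -0.022 after loess, the second sign turned), and Ptgdrl1, reached through the synonym Ptgdr, -0.15 and 0.23 (-0.019 and 0.075 after loess). The export pump Abcc4 gave 0.15 and -0.12 (0.18 and -0.15 after loess).

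Among genes of uptake and breakdown, Slco2a1, Ptgr1 and Ptgr2 (the last 2 chosen after their values were seen) were highest in the same 2 arrays as Hpgd. Slco2a1, the transporter that brings prostaglandins into cells for degradation, was at 8.04 and 7.54 in vehicle, 6.97 and 8.14 in dDAVP and 7.70 and 7.38 after withdrawal. The reductase Ptgr1 was at 12.04 and 11.97, 11.31 and 12.07, and 11.81 and 11.67, and its relative Ptgr2 at 10.52 and 10.30, 10.01 and 10.61, and 10.18 and 9.94. Ptgis was also highest there, whereas Ptges2, Abcc4 and Tbxa2r were lowest. These were 4 and 3 of the 28 genes, against 10.9% of all genes highest and 12.7% lowest, so the counts are near the background. The reductase Ptgr3 had another order, with vehicle replicate 1 the lowest array at 9.35.

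**Figure D4:**
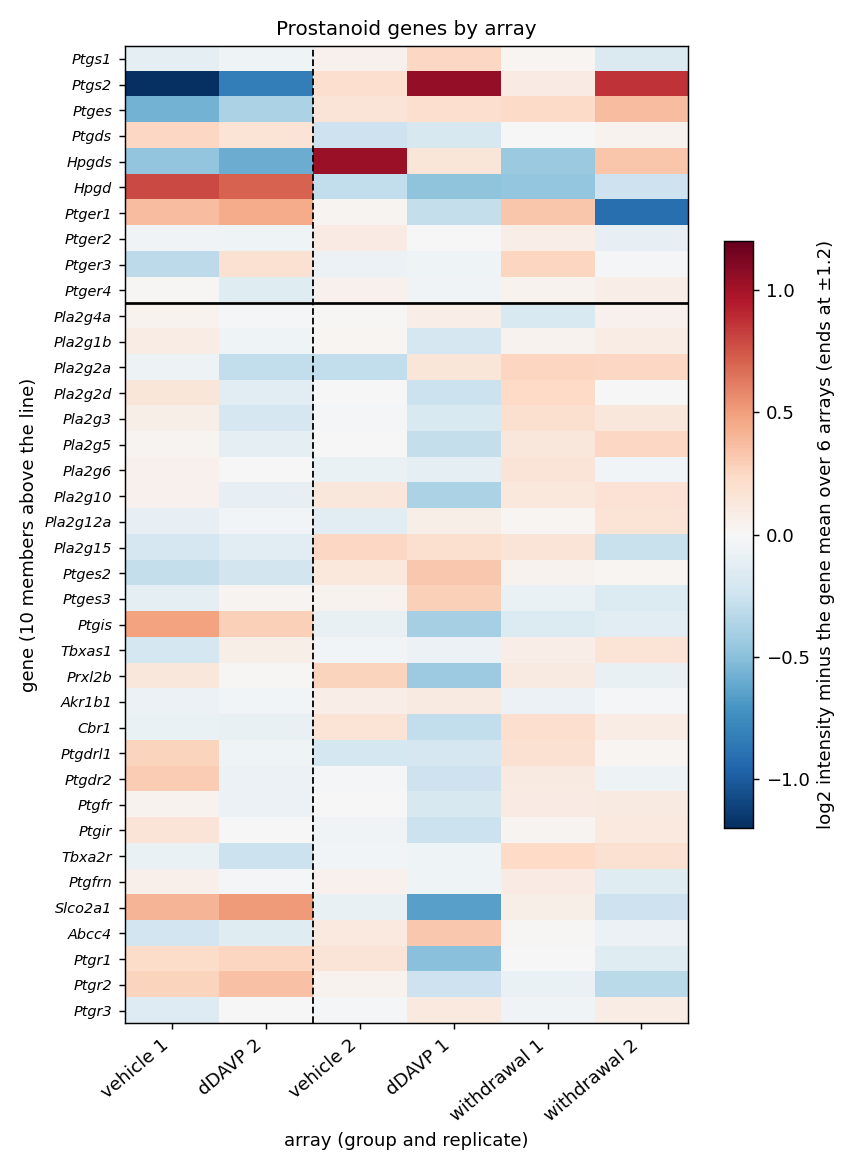
Log2 intensity minus each gene's mean over the 6 arrays (colour) for the 10 members (above the black line) and the 28 other genes of the pathway (rows) in the 6 arrays (columns). The first 2 columns are vehicle replicate 1 and dDAVP replicate 2, where Ptgs2 and Ptges are blue (low) and Hpgd, Slco2a1 and Ptgr2 are red (high).

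The genes closest to Ptgs2 over the 6 arrays, members left out, were Gdf15, Tnfrsf12a, Lpin2, Epha2 and S100a5. Likeness was measured as the root mean square difference of the log2 values after each gene's mean was subtracted. It was 0.22 for Gdf15, a stress cytokine of the TGF-β family, 0.23 for Tnfrsf12a, the receptor of TWEAK, 0.25 for the phosphatidate phosphatase Lpin2, 0.25 for the ephrin receptor Epha2 and 0.28 for the calcium-binding protein S100a5. Tnfrsf12a was at 9.24 and 10.74 in vehicle, 11.18 and 9.15 in dDAVP and 10.55 and 11.19 after withdrawal. As for Ptgs2, vehicle replicate 1 and dDAVP replicate 2 were the lowest arrays and dDAVP replicate 1 and withdrawal replicate 2 the highest in each of the 5. For Ptger3 the nearest genes were Epha1 (0.06), Sema4c (0.08), Zfp593 (0.09), Pcyt2 (0.09) and Ppif (0.09). With 6 arrays and 14168 genes some close matches arise for any gene.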

How the data were processed

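The authors' deposited values are 1 intensity per probe set and array on a linear scale, from 30.2 to 10778.7. The submitters' processing notes name RMA as the summary; its version and the genome build: not given in the sources used here. RMA equalises probe distributions between arrays, which would reduce a change common to most genes. The deposited intensities were turned into log2 values. Of 28524 probe sets, 14947 carried 1 symbol in the platform annotation, and the brightest per gene gave 14168 genes. Symbols were checked by Entrez number in the RefSeq table of GRCr8 (14916 found, 0 changed). All genes were fitted with limma 3.58.1 in R 4.3.3 (lmFit, eBayes), 1 mean per group over 6 arrays, two-sided, with 3 residual and 3.21 prior degrees of freedom and Benjamini-Hochberg adjustment within a comparison. The fit was tested on simulated data. No filter on dim genes was applied. Means are ± SD and differences ± SE.

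The text describes all 10 members, genes of a list of other prostanoid genes (those with an unadjusted p under 0.05 and the nearest relatives), and the 5 genes most like the member of largest SD and that of smallest F-test p. Slco2a1 was among the relatives, and Pla2g4a, Ptgr1, Ptgr2 and Ptgr3 were named after their values were seen. Members and lists were chosen with earlier results of these data known. The results were recomputed under 15 other settings and 1 more chosen after seeing the data. No batch information was used here.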

Additional observations from a re-analysis of the deposited data

How the results depend on the processing

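Of 480 member differences recomputed under other settings, 210 had an estimate that changed at all, and of these 151 kept their direction and 59 turned. None of the 480 passed (smallest adjusted p in limma 0.213), and 14 had an unadjusted p under 0.05, 5 of them with the replicate numbers crossed in dDAVP (smallest unadjusted p in limma 0.0058, Ptgs2 in withdrawal against vehicle). Among the 30 member differences 8 kept their sign throughout: Ptgs2, Ptges, Hpgd, Ptger3 and Ptger4 in withdrawal against vehicle, Ptgs1 and Ptges in withdrawal against dDAVP, and Ptger3 in dDAVP against vehicle. The cause of the turns was not tested. With array medians subtracted the sign turned for dDAVP against vehicle at 0.14 in Ptgds, 0.017 in Hpgd, 0.029 in Ptger1, 0.099 in Ptger2 and 0.029 in Ptger4, for withdrawal against dDAVP at -0.15 in Ptgds, -0.012 in Hpgds, -0.17 in Ptger2, -0.12 in Ptger3 and -0.018 in Ptger4, and for withdrawal against vehicle at -0.011 in Ptgds. After cyclic loess the sign turned for dDAVP against vehicle at 0.070 in Ptgds, 0.024 in Hpgd, 0.097 in Ptger2 and 0.020 in Ptger4, and for withdrawal against dDAVP at -0.060 in Ptgds, -0.052 in Hpgds, -0.17 in Ptger2 and -0.0083 in Ptger4. Without vehicle replicate 1 and dDAVP replicate 2 together the sign turned for dDAVP against vehicle at 0.057 in Ptgds, and for withdrawal against dDAVP at -0.57 in Ptgs2, 0.13 in Hpgd, -0.21 in Hpgds, 0.0052 in Ptger1 and -0.020 in Ptger2. With single arrays left out, dDAVP against vehicle ran from -0.73 to 0.46 in Hpgd, from -1.26 to 0.25 in Hpgds, from -0.27 to 0.23 in Ptgds, from -0.49 to 0.24 in Ptger1, from -0.12 to 0.019 in Ptger2, from -0.25 to 0.47 in Ptges, from -0.024 to 0.28 in Ptgs1 and from -0.23 to 1.66 in Ptgs2. With single arrays left out, withdrawal against dDAVP ran from -1.06 to 0.13 in Hpgd, from -0.23 to 0.56 in Hpgds, from -0.15 to 0.21 in Ptgds, from -0.98 to 0.26 in Ptger1, from -0.079 to 0.097 in Ptger2, from -0.079 to 0.19 in Ptger3 and from -0.57 to 1.31 in Ptgs2. With single arrays left out, withdrawal against vehicle ran from -1.10 to 0.41 in Hpgds, from -0.24 to 0.26 in Ptgds, from -1.10 to 0.13 in Ptger1, from -0.13 to 0.045 in Ptger2 and from -0.14 to 0.054 in Ptgs1.

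Over all genes the count passing in limma was 0 in every comparison and in the F-test under the settings run, except that without dDAVP replicate 1 it ranged from 0 to 2, with 2 genes (Ypel4 and Fam111a, no members) in dDAVP against vehicle, in withdrawal against dDAVP and in the F-test. Whether the replicate numbers pair the arrays cannot be settled from these values. Same-numbered deviations correlated at -0.62 across genes between vehicle and dDAVP, -0.0021 between vehicle and withdrawal and -0.11 between dDAVP and withdrawal. The 2 arrays that stand apart, vehicle replicate 1 and dDAVP replicate 2, carry different numbers. With the replicate block 0 genes passed in each comparison, with 490, 1518 and 128 genes at an unadjusted p under 0.05 in the order of the report, against 1052, 2686 and 253 without it. With the numbers crossed in dDAVP, a choice made after seeing the data, 0 passed and these counts were 1393, 3264 and 736. Depth does not apply to arrays, and the signal over background is unknown.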
